A study of Gallus gallus with 34 samples.

Results

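Positive lens-wear over 3 days was compared with age-matched No Lens in 4 chicks each, 8 of the 34 chicks whose retina, retinal pigment epithelium (RPE) and choroid were sequenced. The chicks were chosen by lens label and day alone. All were male Leghorn/New Hampshire birds. The lens, of +10 diopters, was placed over the right eye on post-hatch day 5 and the tissue of that eye was taken on post-hatch day 8; No Lens chicks of the same age carried nothing in front of the eye. A further group of the same day, with 4 chicks behind a negative lens of the same power, entered the fit and is used for a comparison between lens signs. Each sample was 1 eye of 1 chick, with the 3 tissue layers in 1 extract, and the chicks sequenced had been picked by the study for strong and similar eye measurements. Chicks are named as in the labels: LID26, LID32, LID33 and LID36 for the positive lens, LID59, LID60, LID68 and LID69 for the negative lens, and LID100_top4, LID102, LID103 and LID104 for No Lens. Plots show the number alone.

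A positive lens throws the image in front of the retina. In young birds the eye answers by slowing its elongation while the choroid, the vascular layer behind the RPE, thickens, and refraction shifts towards hyperopia. A negative lens does the opposite. The signal is formed within the eye, passing from the neural retina through the RPE to the choroid and sclera, and involves amacrine cell neuropeptides, dopamine, retinoic acid, growth factors of the BMP and TGF-beta families, and the proteoglycans and hyaluronan that hold water in the stroma. In a pooled sample such as this one, fewer cells of a type and less RNA per cell cannot be told apart.

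Libraries of the positive lens chicks held 5983122 (chick LID26), 1592763 (chick LID32), 5123722 (chick LID33) and 7978470 (chick LID36) gene counts, against 5397894, 5257879, 5048832 and 10835985 in No Lens chicks LID100_top4, LID102, LID103 and LID104. Chick LID32 had the lowest total of all 34 chicks. At that depth 1 read stood for 0.628 CPM (the count scaled to a common library size) and 15.6% of the genes tested had fewer than 10 reads, against 0.426 to 2.07% in the other 3 positive lens chicks and 0.852 to 4.71% in the No Lens chicks. Mitochondrially encoded genes took 8.54% of its counts, against 4.98 to 5.74% in the other positive lens chicks and 4.23 to 6.22% in No Lens chicks. Sums over marker lists and the levels of muscle genes are given in CPM of each library's total count, and all other genes in CPM scaled by edgeR's TMM factors over the 12 chicks of day 3, unless stated. Marker sums of retina and RPE overlapped between the groups: photoreceptor genes summed to 14070 to 16910 CPM with the positive lens and 15480 to 17770 CPM with No Lens, and RPE and melanocyte genes to 4700 to 5490 CPM and 4823 to 5393 CPM. Fibroblast and choroid stroma markers summed to 2849 to 4718 CPM with the positive lens and 2406 to 3449 CPM with No Lens. The 13 markers of lens and ciliary epithelium summed to 177 to 203 CPM with the positive lens, above the 144 to 171 CPM of No Lens, and to 118 to 219 CPM in the other 26 chicks; their part in the results was not tested.

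Transcripts of striated muscle set some chicks apart before any gene was tested. In birds the iris and ciliary muscles are striated, as are the extraocular muscles that attach to the outside of the globe. The 60 striated muscle genes in the table summed to 2302 CPM in positive lens chick LID26 and 5329 CPM in chick LID36, but to 584 CPM in chick LID32 and 505 CPM in chick LID33. In No Lens chicks LID100_top4, LID102 and LID103 the sum was 508, 406 and 400.5 CPM, and in chick LID104 it was 925 CPM. The 26 chicks of the other groups lay between 434 and 773 CPM, so 2 positive lens chicks and, less so, 1 No Lens chick exceeded all of them. ACTN2, the most abundant member, made up a large part of the lower sums, with 254.5 CPM in chick LID33 and 246.5 CPM in chick LID104. It had 372 and 404 CPM in chicks LID26 and LID36 and 176 to 337 CPM in the other 26 chicks. The lower sums therefore rest largely on a gene that was abundant in every chick.

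**Figure D1:**
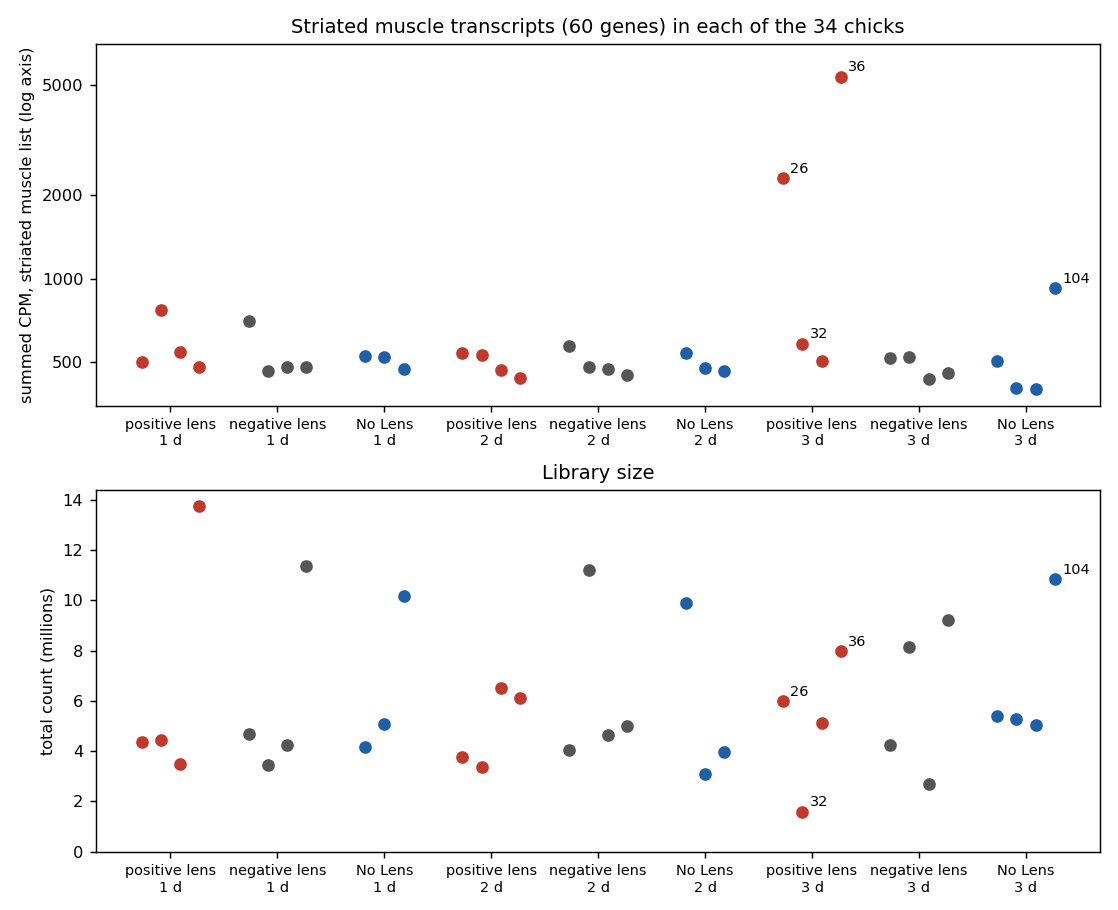
Upper panel: summed CPM of the 60 striated muscle genes (log axis) in each of the 34 chicks, by lens and day. Lower panel: total gene count of each chick. Positive lens chicks LID26 and LID36 of day 3 stand at 2302 and 5329 CPM and No Lens chick LID104 at 925 CPM, above the range of 434 to 773 CPM in the other 26 chicks, while chick LID32 has the smallest library.

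ACTA1, which encodes skeletal muscle actin, reached 413 and 847 CPM in chicks LID26 and LID36, 37.0 CPM in chick LID32 and 4.68 CPM in chick LID33; No Lens chicks LID100_top4, LID102 and LID103 had 5.19, 6.09 and 4.75 CPM and chick LID104 had 77.4 CPM. MYH13, the myosin heavy chain known from extraocular muscle in mammals, had 133, 3.77, 0.586 and 586 CPM in positive lens chicks LID26, LID32, LID33 and LID36, and 0.926, 1.52, 1.78 and 34.2 CPM in No Lens chicks LID100_top4, LID102, LID103 and LID104. Of the 60 muscle genes, 46 in chick LID26, 55 in chick LID36, 10 in chick LID32 and 0 in chick LID33 were above every one of the other 26 chicks, and 27 in No Lens chick LID104. Muscle transcripts therefore separated chicks within each group. In the group comparison 37 of the 60 could be tested, with a median log2 fold change of 2.64, and none was called (33 were higher and 1 lower at an unadjusted p below 0.05 in edgeR). ACTA1 differed by 3.65 ± 1.04 on the log2 scale (SE, adjusted p = 0.0791) and by -0.48 without chicks LID26 and LID36.

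Which genes differed after 3 days of positive lens-wear? Of 11501 genes tested, 101 were differentially-expressed relative to age-matched No Lens at an adjusted p below 0.05 (edgeR quasi-likelihood test), which is 0.878% of those tested. The change was lopsided: 94 were higher with the positive lens (0.817%) and 7 lower (0.0609%). At an unadjusted p below 0.05, 1510 genes were higher, or 13.1% of those tested, and 517 lower, although the median log2 fold change of all genes was -0.01. Among the genes called higher the log2 fold change ran from 0.42 to 3.92 with a median of 1.08; among those called lower it ran from -2.21 to -0.30. The genes called higher were expressed at a median of 15.4 CPM in No Lens chicks, against 35.0 CPM for all genes tested. In 97 of the 101 the values of the 4 positive lens chicks and the 4 No Lens chicks did not overlap; the share of such genes among all those tested was 11.9%. The lowest adjusted p was 0.0283, so no call lay far from the threshold. These p-values set each difference against the spread between the chicks sequenced. That spread was estimated over the 12 chicks of day 3, with information shared between genes.

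**Figure D2:**
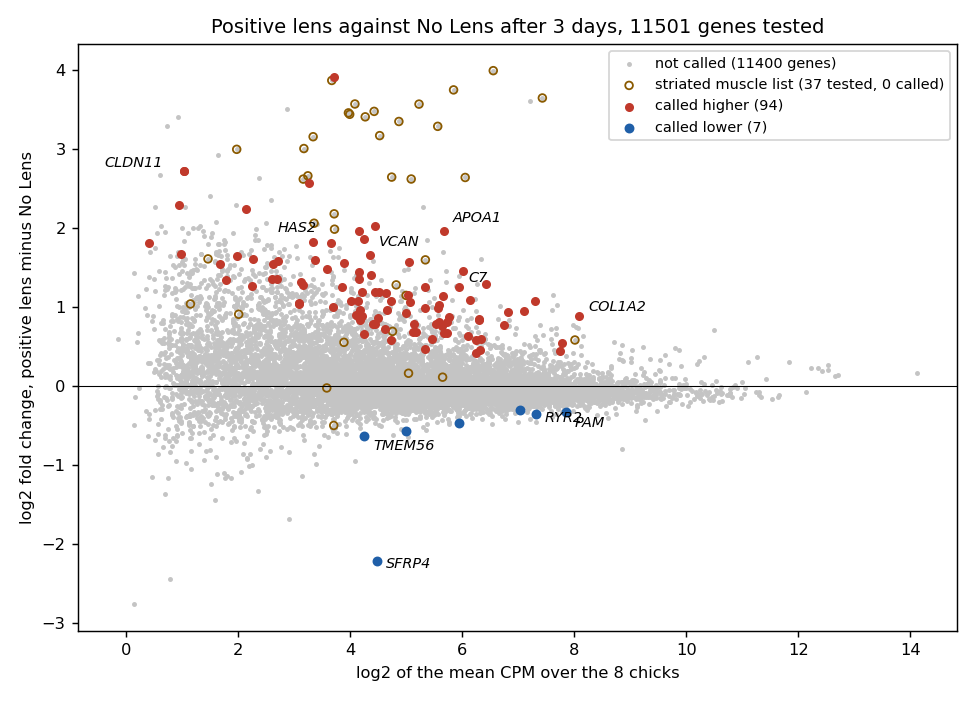
Log2 fold change (positive lens minus No Lens, 3 days) against the log2 of the mean CPM over the 8 chicks, for the 11501 genes tested. Red points are the 94 genes called higher, blue points the 7 called lower, and brown rings the 37 tested genes of the striated muscle list, none of which was called.

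The number of calls rested on single chicks. Without positive lens chick LID26, LID33 or LID36 it was 9, 24 or 0, and without No Lens chick LID100_top4, LID102, LID103 or LID104 it was 0, 18, 0 or 0. Leaving out the shallow chick LID32 gave 107 calls, of which 67 were among the 101. Negative lens chicks are in neither group compared. They enter through the filter on low counts, the TMM factors and the shared estimate of the spread. Even so, the count was 73, 169, 5 and 779 without chicks LID59, LID60, LID68 and LID69. In the edgeR fits that called no gene, 1626 to 1926 genes were at an unadjusted p below 0.05 when 1 chick was left out. In each of these 12 fits all of the 101 genes that could be tested (100 or 101) kept their sign. In 97 of the 101 the groups compared did not overlap, so leaving out 1 chick could hardly turn the sign. The kept signs follow largely from that choice of genes and are a description. Each single call below between positive lens and No Lens has the limit that it is lost without chick LID36, LID100_top4, LID103 or LID104.

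**Figure D3:**
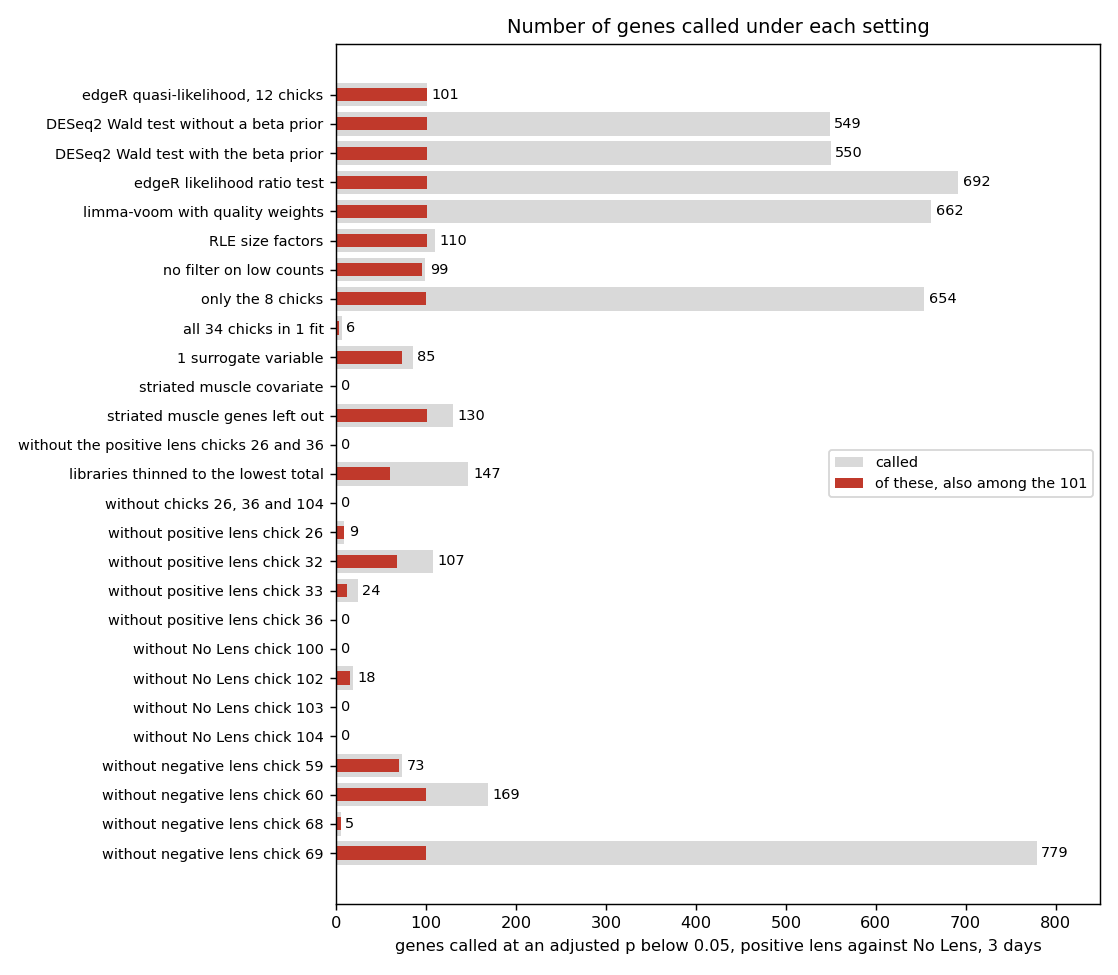
Number of genes called between positive lens and No Lens chicks of day 3 under each setting (grey bars, with the number at the right), and how many of them are among the 101 genes of the first bar (red bars). The count ranges from 0 to 779 across the settings.

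Without chicks LID26 and LID36 together no gene was called (edgeR, 1389 at an unadjusted p below 0.05), and all 100 of the 101 genes that could be tested kept their sign, with a median log2 fold change of 1.06 for those called higher. With the log2 sum of the muscle genes as a covariate no gene was called either (1444 at an unadjusted p below 0.05) and all 101 kept their sign. The genes were called in these same chicks, most without overlap between the groups, so the kept signs and the median are a description. Leaving the muscle genes themselves out before normalization gave 130 calls, which held all 101. None of the 101 is in the muscle list, so this step could remove none of them directly. Any muscle transcripts outside the list stayed in the fit. The part of muscle or of tissue taken along with it in the other differences was not tested further.

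The gene with the largest fall was SFRP4, a secreted antagonist of Wnt ligands that has been followed in studies of eye growth. It stood at 8.77, 5.98, 4.44 and 11.02 CPM in positive lens chicks LID26, LID32, LID33 and LID36, against 32.02, 25.5, 63.1 and 28.5 CPM in No Lens chicks LID100_top4, LID102, LID103 and LID104. The groups were well apart, with the highest positive lens chick below the lowest No Lens chick. The log2 fold change was -2.21 ± 0.36 (SE, adjusted p = 0.0312). Negative lens chicks of the same day had 7.74, 9.78, 22.3 and 9.54 CPM, also below every No Lens chick. Of the 26 chicks of the other groups, 18 lay at or below the highest positive lens chick and 1 reached the lowest No Lens chick, so the 4 No Lens chicks of day 3 were the ones that stood out. On the scale of all 34 chicks, No Lens chicks had 6.31 to 12.7 CPM at 1 day, 5.93 to 17.7 CPM at 2 days and 25.8 to 64.5 CPM at 3 days.

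The other 6 falls were small but tight. TMEM56, a transmembrane protein, had 19.0, 13.9, 13.3 and 13.4 CPM in positive lens chicks and 23.0, 21.7, 24.6 and 23.7 CPM in No Lens chicks (log2 fold change -0.63 ± 0.14 SE, adjusted p = 0.0447). Negative lens chicks had 21.1, 25.2, 23.1 and 22.8 CPM, so among the 3 groups of the day the positive lens chicks alone were low. The difference between lens signs was not called (log2 difference -0.62 ± 0.14 SE, adjusted p = 0.142). CXCR4, the receptor of the chemokine CXCL12, averaged 25.8 ± 2.77 CPM with the positive lens and 38.5 ± 4.18 CPM with No Lens (SD, n = 4 each). PAM, which amidates the C-terminus of peptide hormones, averaged 204 ± 9.42 and 257 ± 2.83 CPM. RYR2, a calcium release channel of the endoplasmic reticulum, averaged 140 ± 4.88 CPM with the positive lens and 178 ± 19.7 CPM with No Lens. STXBP5L, a tomosyn that binds the SNARE proteins of synaptic vesicle release, averaged 117 ± 2.77 and 144 ± 6.46 CPM. FSD1L averaged 51.9 ± 2.39 CPM in positive lens chicks and 71.9 ± 4.37 CPM in No Lens chicks. For FSD1L and STXBP5L none of the other 26 chicks was as low as the highest of the 4 positive lens chicks, and for CXCR4 and RYR2 3 were. For TMEM56 5 were as low, and for PAM 9.

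Several genes of the extracellular matrix were called higher. Hyaluronan is a large, water-binding polysaccharide of stroma and vitreous; HAS2 makes it, HYAL2 cleaves it, and versican (VCAN) is the large proteoglycan that binds it. All 3 were called higher, of 40 tested genes for hyaluronan and proteoglycans, which is 7.5% against 0.878% of all genes. At an unadjusted p below 0.05, 11 of the 40 were higher and 0 lower, against 13.1% of all genes higher, and the median log2 fold change was 0.178, against -0.007 for all genes. This list, like those below, was chosen with earlier results of these data known, so such shares are a description. VCAN stood at 48.5, 19.9, 16.8 and 38.6 CPM in positive lens chicks LID26, LID32, LID33 and LID36, against 9.20, 9.97, 9.67 and 11.2 CPM in No Lens chicks LID100_top4, LID102, LID103 and LID104. All 4 positive lens values were above the No Lens range, the 2 chicks rich in muscle transcripts being the highest. The log2 fold change was 1.66 ± 0.28 (SE, adjusted p = 0.0312) and 0.83 without chicks LID26 and LID36 (adjusted p = 0.21).

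HAS2 had 35.4, 9.96, 11.8 and 21.0 CPM in positive lens chicks LID26, LID32, LID33 and LID36, and 2.39, 9.20, 6.65 and 5.15 CPM in No Lens chicks LID100_top4, LID102, LID103 and LID104. The lowest positive lens chick was just above the highest No Lens chick. Its log2 fold change was 1.82 ± 0.38 (SE, adjusted p = 0.0445), and 0.92 without chicks LID26 and LID36 (adjusted p = 0.382). HYAL2 averaged 7.24 ± 1.05 CPM with the positive lens and 2.42 ± 0.53 CPM with No Lens (SD, n = 4 each), a log2 fold change of 1.61.

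For type I collagen, the main fibrous collagen of stroma, a gene annotated to each of its chains was called higher. COL1A2 averaged 353 ± 136 CPM in positive lens chicks and 193 ± 30.5 CPM in No Lens chicks (SD, n = 4 each). Its log2 fold change was 0.89, and 0.41 without chicks LID26 and LID36 (adjusted p = 0.25 in edgeR). The gene ENSGALG00000023973, annotated as the alpha-1(I) chain, had 40.2, 43.8, 24.1 and 31.9 CPM in positive lens chicks, against 6.07, 12.1, 7.66 and 7.91 CPM in No Lens chicks. Here the groups were wide apart and chicks LID26 and LID36 were not the highest. It shared the lowest adjusted p of all genes with STAT5 (log2 fold change 2.03 ± 0.29 SE, adjusted p = 0.0283; 1.94 without chicks LID26 and LID36). Of 46 collagen and laminin genes tested, 1 was called (COL1A2, as the alpha-1(I) chain carries no symbol), 18 were higher and 1 lower at an unadjusted p below 0.05, and the median log2 fold change was 0.306. Of all genes, 0.878% were called and 13.1% were higher at that p, and the median was -0.007. MRC2, a receptor that takes up collagen, averaged 64.1 ± 8.36 against 31.9 ± 4.05 CPM, and LTBP2, a latent TGF-beta binding protein of microfibrils, 41.2 ± 9.93 against 22.3 ± 0.62 CPM.

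Of the proteases and inhibitors of the matrix, none of 37 was called (9 higher and 2 lower at an unadjusted p below 0.05 in edgeR). Of all genes, 0.878% were called and 13.1% were higher at that p. TIMP2, an inhibitor of matrix metalloproteinases, missed the threshold narrowly: 145, 114, 171 and 145 CPM in positive lens chicks against 87.2, 98.2, 77.4 and 80.3 CPM in No Lens chicks, with no overlap (adjusted p = 0.0522). COL2A1, the fibrillar collagen of cartilage and vitreous, averaged 86.6 ± 13.7 and 48.9 ± 3.20 CPM (adjusted p = 0.0605). Summed levels of the whole list of 38 fibroblast and choroid stroma markers were 4718, 3117, 2849 and 3861 CPM in positive lens chicks LID26, LID32, LID33 and LID36, against 2610, 3072, 3449 and 2406 CPM in No Lens chicks LID100_top4, LID102, LID103 and LID104. The groups overlapped, the 2 highest sums being those of the chicks with muscle transcripts. In that list 2 of 35 tested genes were called higher (COL1A2 and C7) and 1 lower (SFRP4), or 8.57% against 0.878% of all genes.

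Immune genes were mixed. C7, a component of the terminal complement complex that stromal cells also make, had 117, 40.5, 62.4 and 125 CPM in positive lens chicks LID26, LID32, LID33 and LID36, and 32.02, 26.8, 36.9 and 52.2 CPM in No Lens chicks LID100_top4, LID102, LID103 and LID104. Chick LID32 fell within the No Lens range and the other 3 lay above it. The log2 fold change was 1.25 ± 0.28 (SE, adjusted p = 0.0452), and 0.49 without chicks LID26 and LID36. It was the 1 gene called of 22 in the complement and coagulation list (4.55%, against 0.878% of all genes). There 8 were higher and 0 lower at an unadjusted p below 0.05, against 13.1% of all genes higher. B2M, the light chain of class I major histocompatibility molecules, averaged 25.5 ± 7.73 against 11.5 ± 2.33 CPM, and BLB1, a class II beta chain of the chicken, 5.91 ± 1.75 against 2.02 ± 0.33 CPM (SD, n = 4 each, positive lens first). STAT5, a transcription factor of cytokine signalling, had 59.2, 55.1, 62.8 and 74.4 CPM in positive lens chicks and 27.2, 38.0, 30.2 and 32.9 CPM in No Lens chicks, with no overlap (log2 fold change 0.99, adjusted p = 0.0283). In the leukocyte list, which has 57 genes, 2 of 37 tested were called higher (B2M and BLB1) and 1 lower (CXCR4), or 8.11% against 0.878% of all genes. The list summed to 358 to 519 CPM with the positive lens and 358 to 433 CPM with No Lens.

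ENSGALG00000021139, annotated as an immunoglobulin lambda variable region, had the largest rise of all genes called and is named for that after its values were seen. Its values were 35.2, 3.32, 16.6 and 42.1 CPM in positive lens chicks against 0.92, 4.60, 0.81 and 0.92 CPM in No Lens chicks. Chick LID32, with 3.32 CPM, was below No Lens chick LID102. Such transcripts come from B cells and plasma cells.

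Some genes of myelin were called higher with the positive lens. In birds the retinal nerve fibre layer holds myelin-forming oligodendrocytes. CLDN11, the claudin of myelin tight junctions, had 5.79, 2.66, 3.67 and 2.10 CPM in positive lens chicks LID26, LID32, LID33 and LID36, against 0.368, 0.959, 0.403 and 0.460 CPM in No Lens chicks LID100_top4, LID102, LID103 and LID104. The groups did not overlap, and the log2 fold change was 2.72. These levels are a few reads: 1 read stood for 0.628 CPM in chick LID32 and 0.185 CPM in chick LID100_top4. Of the 26 chicks of the other groups, 13 reached the lowest positive lens chick. Only 6 lay at or below the highest No Lens chick. MBP, a main protein of the myelin sheath, had 695, 592, 669 and 849 CPM in positive lens chicks and 367, 503, 708 and 421 CPM in No Lens chicks, an overlap with chick LID103, and was not called (adjusted p = 0.12). Of 18 oligodendrocyte genes tested, 2 were called (11.1%, against 0.878% of all genes). At an unadjusted p below 0.05, 10 were higher and 0 lower, against 13.1% of all genes higher. The median log2 fold change was 0.339, against -0.007 for all genes. The list summed to 1752 to 2166 CPM with the positive lens and 1288 to 1859 CPM with No Lens.

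Genes of signalling and of the neural retina followed. APOA1, the main protein of high density lipoprotein, which the chick retina is known to make, had 117, 39.8, 71.4 and 92.8 CPM in positive lens chicks against 21.5, 28.6, 19.7 and 16.5 CPM in No Lens chicks (log2 fold change 1.96 ± 0.33 SE, adjusted p = 0.0312). Every positive lens chick was above every No Lens chick of day 3. Of the 26 chicks of the other groups, 14 reached the lowest positive lens chick and 7 lay at or below the highest No Lens chick. FGFR1, a receptor of fibroblast growth factors, averaged 84.1 ± 11.5 against 53.4 ± 4.07 CPM. SDK2, an adhesion molecule that directs synapses to layers of the retina, averaged 150 ± 24.6 CPM with the positive lens and 77.3 ± 13.2 CPM with No Lens. BSN (bassoon, a scaffold of the presynaptic active zone) averaged 180 ± 19.8 against 93.3 ± 19.2 CPM. UNC5A, a receptor of the guidance cue netrin, averaged 15.5 ± 1.05 against 5.18 ± 1.34 CPM, and HPCA (hippocalcin, a neuronal calcium sensor) 136 ± 9.50 against 79.6 ± 13.83 CPM. ESPN (espin), which bundles actin, averaged 214 ± 22.6 against 101 ± 20.8 CPM. ENSGALG00000010291, annotated as the RNA binding protein with multiple splicing that marks retinal ganglion cells, averaged 30.5 ± 3.72 against 18.6 ± 2.27 CPM. It was the 1 gene called of 37 inner retinal neuron markers (2.7%, against 0.878% of all genes), whose median log2 fold change was 0.063.

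Several nuclear regulators were called higher with the positive lens. Among them were NCOA1, a coactivator of nuclear receptors (98.0 ± 7.73 against 64.3 ± 4.43 CPM), and DNMT1, the maintenance DNA methyltransferase (52.9 ± 1.09 against 35.1 ± 5.10 CPM). Of 122 chromatin regulators tested 3 were called, all higher (2.46%, against 0.878% of all genes), and the median log2 fold change was -0.03. At an unadjusted p below 0.05 in edgeR, 18 of them were higher and 12 lower. Of all 11501 genes, 13.1% were higher and 517 lower at that p. SP1, a zinc finger factor that binds GC boxes, averaged 22.3 ± 5.59 against 7.40 ± 2.48 CPM. Of 134 zinc finger factors tested 2 were called (1.49%), and 24 were higher and 5 lower at the unadjusted p. IRX6, an iroquois homeobox factor of the retina, averaged 9.98 ± 2.82 against 3.19 ± 0.55 CPM. It was the 1 call of 59 homeobox and retinal transcription factors (1.69%, against 0.878% of all genes). Of the 59, 19 were higher and 1 lower at an unadjusted p below 0.05, against 13.1% of all genes higher (median log2 fold change 0.256). KIF7, a kinesin of the primary cilium in hedgehog signalling, averaged 27.0 ± 1.44 against 15.5 ± 3.10 CPM. It was the 1 call of 228 centrosome and cilium genes (0.439%, below the 0.878% of all genes). Of the 228, 12 were higher and 10 lower at the unadjusted p. C17orf53 averaged 3.64 ± 1.34 against 0.47 ± 0.18 CPM. Its No Lens values were a few reads, with 0.201 CPM in chick LID103, where 1 read stood for 0.198 CPM. C17orf53 and DNMT1 were called in the list of genes of cell division and DNA repair, 1.92% of the members tested, against 0.878% of all genes. Of 65 cytosolic ribosomal protein genes RPS26 and RPL35 were called (3.08%, against 0.878% of all genes). They averaged 49.5 ± 6.81 against 16.95 ± 3.38 CPM and 91.9 ± 6.19 against 67.2 ± 5.06 CPM. GNB2L1, a scaffold on the ribosome, averaged 260 ± 16.2 against 179 ± 21.1 CPM.

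Further genes reached by the size or rank of their rise were FAM160A2 (log2 fold change 1.82), FAM43A (2.57), GIT1, a GTPase-activating protein for ARF proteins (1.96), IGSF9, an immunoglobulin superfamily member of dendrites (1.86), FXYD6, a regulator of the sodium pump (0.82), ARHGEF11 (0.45), RBM41 (1.54) and ZNF385C (1.08). Genes without a symbol were ENSGALG00000014171, with 18.4, 26.6, 23.4 and 19.9 CPM in positive lens chicks against 10.3, 10.7, 11.3 and 8.92 CPM in No Lens chicks, ENSGALG00000010221 (log2 fold change 0.76), ENSGALG00000000308 (2.29) and ENSGALG00000026878 (2.25). The No Lens mean of ENSGALG00000000308 was 0.663 CPM, which is also a few reads. In all, 13 of the 101 genes had no symbol. The 47 lists examined held 29 of the 101, so most of the genes called fell in no list.

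With 0.878% of all genes called, few or no calls would fall in lists of the size of those described next. The oligodendrocyte, stroma and leukocyte lists above had higher shares (11.1%, 8.57% and 8.11%). None of 44 photoreceptor genes was called (edgeR; 9 higher and 4 lower at an unadjusted p below 0.05, median log2 fold change -0.07), nor any of 31 RPE and melanocyte genes (3 higher, 4 lower, -0.10), 17 Müller glia genes (3 higher, 1 lower, 0.06) or 29 endothelial genes (9 higher, 1 lower, 0.19), where 13.1% of all genes were higher at that p. Photoreceptor members nearest to the threshold were FSCN2, the photoreceptor fascin that bundles actin in outer segments, at 77.1 ± 18.9 against 24.3 ± 7.13 CPM (adjusted p = 0.0524), and the rod transducin GNAT1 at 136 ± 12.0 against 101.3 ± 12.98 CPM (adjusted p = 0.0603). SOX8, a transcription factor of glia, had 14.2, 10.6, 16.6 and 13.9 CPM in positive lens chicks and 6.26, 6.52, 5.84 and 4.87 CPM in No Lens chicks, with no overlap (adjusted p = 0.0531). PMEL, the fibril protein of melanosomes, averaged 89.7 ± 18.4 against 33.8 ± 12.8 CPM (adjusted p = 0.0831).

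Of 60 nuclear respiratory chain genes none was called (16 higher and 2 lower at an unadjusted p below 0.05 in edgeR, median log2 fold change 0.10). Of all genes, 0.878% were called and 13.1% were higher at that p. ATP5B, the catalytic beta subunit of ATP synthase, averaged 320 ± 22.6 CPM with the positive lens and 188 ± 29.2 CPM with No Lens (adjusted p = 0.0605). MRPS21, of the mitochondrial ribosome, averaged 4.70 ± 1.83 against 0.93 ± 0.64 CPM (adjusted p = 0.061). Of 21 circadian clock genes none was called (2 higher and 0 lower at an unadjusted p below 0.05): AANAT, the enzyme that sets the rhythm of melatonin synthesis, averaged 19.6 ± 4.47 against 6.24 ± 2.05 CPM (adjusted p = 0.0605) and BHLHE40 22.6 ± 7.55 against 9.89 ± 3.20 CPM (adjusted p = 0.0612). Of 23 immediate early genes none was called either (4 higher, 0 lower); JUN averaged 39.7 ± 12.7 against 25.5 ± 3.91 CPM (adjusted p = 0.102).

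Genes long studied in eye growth gave 4 calls of 62 tested: APOA1, FGFR1 and HAS2 higher and SFRP4 lower. That is 6.45% of the list, against 0.878% of all genes. The list was chosen with earlier results of these data known, so its share of calls is a description. At an unadjusted p below 0.05, calls included, 15 of the 62 were higher and 3 lower, against 13.1% of all genes higher and 517 of 11501 lower, and the median log2 fold change was 0.151. IGFBP4 and IGFBP5, which bind insulin-like growth factors, averaged 25.1 ± 7.42 against 9.13 ± 2.44 CPM (adjusted p = 0.0603) and 7.05 ± 2.05 against 2.28 ± 0.92 CPM (adjusted p = 0.0761). RARA, a retinoic acid receptor, had 42.2, 38.5, 40.2 and 39.4 CPM in positive lens chicks and 24.1, 20.9, 16.3 and 15.5 CPM in No Lens chicks, far apart yet short of the threshold (adjusted p = 0.0611). VIP, a neuropeptide of amacrine cells, averaged 11.1 ± 2.16 against 16.2 ± 4.74 CPM (adjusted p = 0.144), and TH, the rate-limiting enzyme of dopamine synthesis, 1.30 ± 0.10 against 2.43 ± 1.15 CPM (adjusted p = 0.197). Of 47 genes of the BMP and TGF-beta pathway 1 was called (LTBP2), and of 40 of the Wnt pathway also 1 (SFRP4). That is 2.13% and 2.5%, against 0.878% of all genes.

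Did these differences depend on the sign of the lens? Between positive and negative lens chicks of day 3, 4 genes were called, 0.0348% of those tested, all higher with the positive lens: VCAN, C7, PTX3 and NPR3. C7 and VCAN were also among the 101. The count was 84 without positive lens chick LID33, 1 and 2 without negative lens chicks LID60 and LID68, and 1 without positive lens chicks LID26 and LID36. The negative lens chicks had 8.44, 6.48, 5.95 and 9.22 CPM of VCAN, 3 of them below the No Lens range and chick LID69 at its low end. The log2 difference, positive minus negative lens, was 2.06 ± 0.29 (SE, adjusted p = 0.00853). C7 stood at 15.5, 18.5, 23.1 and 15.9 CPM in the negative lens chicks, all below the lowest No Lens chick (log2 difference 2.32 ± 0.30 SE, adjusted p = 0.00627). The group means of both genes ran in the same order, positive lens above No Lens above negative lens.

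NPR3, the clearance receptor that removes natriuretic peptides, had 50.6, 25.9, 23.9 and 34.9 CPM in positive lens chicks LID26, LID32, LID33 and LID36 and 9.62, 9.53, 5.21 and 7.93 CPM in negative lens chicks, against 21.0, 20.3, 20.4 and 21.2 CPM in No Lens chicks. The 3 groups did not overlap. The log2 difference between the lens signs was 2.05 ± 0.22 (SE, adjusted p = 0.00159), the difference of positive lens from No Lens 0.74 ± 0.21 (SE, adjusted p = 0.0761), and that of negative lens from No Lens -1.32 (adjusted p = 0.172). Without chicks LID26 and LID36 the difference of positive lens from No Lens was 0.24 (adjusted p = 0.704), and with the muscle covariate 0.40. PTX3, a soluble pattern recognition protein that also cross-links hyaluronan matrix, had 39.2, 6.64, 12.6 and 27.0 CPM in positive lens chicks and 2.11, 1.59, 0.74 and 1.18 CPM in negative lens chicks, against 2.94, 6.33, 5.24 and 11.2 CPM in No Lens chicks. Positive and negative lens chicks did not overlap; chick LID32 overlapped No Lens chick LID104. Its log2 difference between the lens signs was 3.96 ± 0.53 (SE, adjusted p = 0.00738), and from No Lens 1.75 ± 0.43 (SE, adjusted p = 0.0603), with 0.61 for the second value without chicks LID26 and LID36.

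HAS2 had 4.69, 4.28, 2.98 and 4.07 CPM in negative lens chicks, all within the No Lens range. Its log2 difference between lens signs was 2.31 ± 0.40 (SE, adjusted p = 0.0665). VCAN, HAS2 and C7 were the 3 of the 94 genes called higher whose level was lower with the negative lens than with No Lens. In VCAN, HAS2, C7, PTX3 and NPR3 alike, chicks LID26 and LID36 had the highest positive lens values, with means of 43.5, 28.2, 121, 33.1 and 42.8 CPM for those 2 chicks and 18.4, 10.9, 51.4, 9.60 and 24.9 CPM for chicks LID32 and LID33. Over the 94 genes, LID26 and LID36 were both above LID32 and LID33 in 21 (22.3%) and both below in 26 (27.7%), against 18.6% and 16.6% of all genes.

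**Figure D4:**
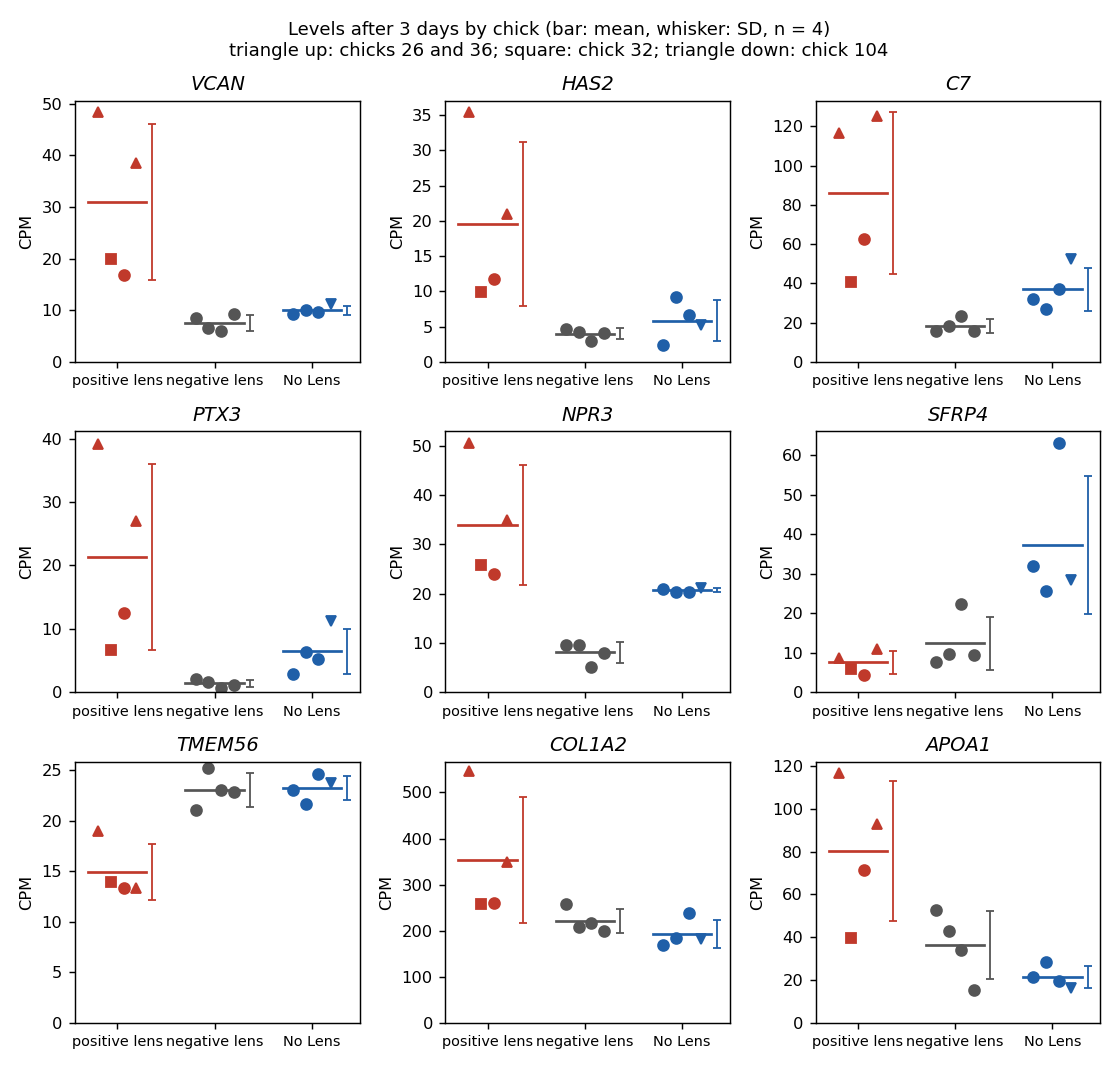
CPM after 3 days in each chick of the positive lens, negative lens and No Lens groups (lines are means, whiskers SD, n = 4 each) for 9 genes. VCAN, HAS2, C7, PTX3 and NPR3 have their highest mean in positive lens chicks and their lowest in negative lens chicks. A single chick overlaps No Lens in VCAN, C7 and PTX3, and none does in NPR3. For HAS2 all 4 negative lens chicks lie within the No Lens range. SFRP4 is low in both lens groups and TMEM56 in positive lens chicks alone. COL1A2 and APOA1 have their highest mean in positive lens chicks.

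The other 91 genes called higher were also higher in negative lens chicks than in No Lens chicks. Over all 94 the median log2 difference of negative lens from No Lens was 0.58, and that of positive from negative lens 0.45, against 0.00 and 0.01 over all genes tested. Both comparisons share chicks with the one that chose the genes, so these values are a description. Of the 94 genes, 91 in negative lens chick LID59, 87 in chick LID60, 75 in chick LID68 and 15 in chick LID69 lay above the highest No Lens chick, against 19.6 to 25.7% of all genes in those 4 chicks. Chick LID69 was lowest by this count. The median log2 level of the 94 genes relative to No Lens lay between -0.02 and 0.82 in the 4 negative lens chicks, with 0.46 in chick LID68.

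VCAN, HAS2, C7, PTX3 and NPR3, whose means at 3 days were ordered by lens sign, were also higher with the positive lens on average at the earlier days. Values here are scaled over all 34 chicks. NPR3 ranged from 19.8 to 41.3 CPM in positive lens chicks and from 11.1 to 15.6 CPM in No Lens chicks at 1 day, and from 19.7 to 37.7 and from 14.1 to 18.7 CPM at 2 days. HAS2 ranged from 12.6 to 27.3 CPM in positive lens chicks and from 7.13 to 10.9 CPM in No Lens chicks at 1 day, and from 12.9 to 22.6 and from 4.61 to 7.35 CPM at 2 days. C7 differed from No Lens by 1.36 ± 0.37 on the log2 scale at 1 day and 1.47 ± 0.38 at 2 days, PTX3 by 1.99 ± 0.61 and 2.36 ± 0.63, and VCAN by 0.75 ± 0.33 and 0.78 ± 0.34 (SE, all 34 chicks in 1 fit). Positive lens and No Lens chicks did not overlap in HAS2, C7, PTX3 or NPR3 on either day. VCAN overlapped at 1 day (11.3 to 35.2 CPM with the positive lens, 8.57 to 12.4 CPM with No Lens). The share of all genes without overlap on those 2 days was not counted, so the separation is a description. Groups of 4 and 3 chicks also separate more easily than groups of 4 and 4. The order by lens sign did not hold for C7 at 1 day, where the 4 negative lens chicks (31.8 to 45.8 CPM) overlapped the positive lens chicks (37.0 to 91.3 CPM) and lay above No Lens (18.4 to 24.5 CPM). Different chicks were used for each day, 4 with the positive lens and 3 with No Lens at 1 and at 2 days.

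The 94 genes were chosen for their rise at 3 days, so smaller differences on other days follow from that choice. Of the 94, 29 were higher with the positive lens than with No Lens at 1 day (median log2 fold change -0.06) and 83 at 2 days (0.15). Of all genes in that fit, 46.5% were higher at 1 day (median -0.013) and 50.3% at 2 days (median 0.001). APOA1 differed by 0.15 ± 0.60 and 0.34 ± 0.62 on the log2 scale at 1 and 2 days, and STAT5 by -0.04 ± 0.41 and 0.25 ± 0.42 (SE). Whether the lens effect at 3 days differed from that at 1 or 2 days was tested directly, and in edgeR no gene passed for either day (948 and 491 at an unadjusted p below 0.05; 1 and 0 called by DESeq2, 0 and 2 by limma-voom, 0 and 0 by edgeR's likelihood ratio test).

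The level of the 94 genes was also followed in every chick. The genes were called for a large gap and a small spread between the 8 chicks of day 3. Narrow ranges in these 2 groups follow from that choice, and the values are a description. For each chick the median of their log2 levels was taken relative to the No Lens chicks of day 3. It lay between 0.91 and 1.04 in the 4 positive lens chicks of day 3, whose spread was 0.126, and between -0.09 and 0.14 in the 4 No Lens chicks, whose spread was 0.227. In each of the other 7 groups the chicks were spread over 0.841 to 2.23. A chick's median shifts this far only when many of the 94 genes shift together in that chick. What moved them together was not tested. Positive lens chicks of 2 days ran from -1.24 to 0.99, and No Lens chicks of 2 days from -0.33 to 0.72. Over the 26 other chicks the median was 0.719; 5 lay at or above the lowest positive lens chick of day 3 and 7 at or below the highest No Lens chick.

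**Figure D5:**
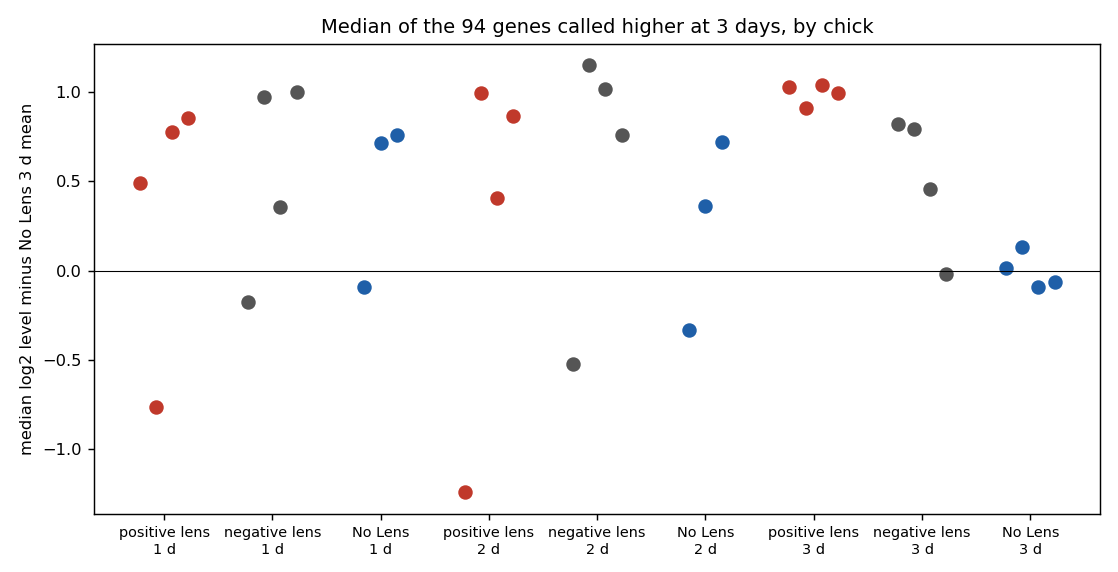
Median log2 level of the 94 genes called higher, relative to No Lens at day 3, for each of the 34 chicks by lens and day. The 4 positive lens chicks of day 3 lie between 0.91 and 1.04 and the 4 No Lens chicks between -0.09 and 0.14. Chicks of each other group, which were not among the 8 compared, spread over 0.841 to 2.23.

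Gene by gene, the number of the other 26 chicks that reached the lowest positive lens chick of day 3 had a median of 10 over the 94 genes and ran from 2 to 19. It was at most 3 for 6 genes, among them VCAN and ENSGALG00000023973. Chick LID32 gave the lowest of the 4 positive lens values in 36 of the 94 genes and the highest in 25, and chick LID33 in 10 and 28.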

How the data were processed

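Counts per gene were deposited by the authors for each chick. By the study's methods and processing notes, reads of a stranded mRNA library were trimmed with CutAdapt and Trimmomatic, aligned to galGal4 with TopHat2 and Bowtie2, and counted with HTSeq; the strand setting is not given in the sources used here, so overlapping and antisense genes may share reads. Genes were kept with edgeR 4.0.16 (filterByExpr, minimum count 10, minimum total 15) in R 4.3.3. The 12 chicks of day 3 were fitted with 1 mean per group, TMM factors and the quasi-likelihood test, with Benjamini-Hochberg adjustment over all genes tested; comparisons between days used all 34 chicks. Alternatives used DESeq2 1.42.0, limma 3.58.1 and sva 3.50.0. The scripts were tested on simulated data.

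Genes named were the called genes with the largest rise, every fall, the lowest adjusted p and the highest level, up to 10 each, called or nearest members of each list, the most abundant markers, eye growth candidates, and ENSGALG00000014171 and SFRP4. The comparison, lists and rule were chosen with earlier results of these data known. Depth ran from 1592763 to 10835985 counts in the 8 chicks compared, which limits low genes in chick 32. No 2 libraries of a group agreed within sampling noise (chi-square per gene 4.13 to 9.68). Some genes called are not reported here by name.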

Additional observations from a re-analysis of the deposited data

Results flagged for a closer look

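In 17 of 178 groups of 4 chicks examined, 1 chick stood far from the other 3 by Dixon's criterion, which chance alone meets in about 1 group in 20. Among positive lens chicks, chick LID26 was high for TMEM56 (19.0 CPM) and low for TH (1.16 CPM), chick LID36 was low for BSN (151 CPM), and the shallow chick LID32 was low for IGFBP5 (3.98 CPM) and MRPS21 (1.99 CPM). The gaps for TH and MRPS21 lie near the floor, as 1 read stood for 0.628 CPM in chick LID32 and 0.167 CPM in chick LID26. Chick LID33 had the lowest sum of smooth muscle and pericyte markers (1729 CPM).

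Among No Lens chicks, chick LID102 was high for CLDN11 (0.959 CPM), SP1 (11.1 CPM), SDK2 (97.0 CPM) and ENSGALG00000021139 (4.60 CPM), chick LID103 was low for C17orf53 (0.201 CPM), and chick LID100_top4 stood apart for ENSGALG00000000308 (0.920 CPM) and had the highest sum of Müller glia markers (4497 CPM). Chick LID104 was high for ACTA1 (77.4 CPM), MYH13 (34.2 CPM) and MYL1 (25.8 CPM), and its library was the deepest (10835985 counts).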

How the results depend on the processing

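The number of genes called between positive lens and No Lens chicks moved with the test. It was 549 (486 higher, 63 lower) with DESeq2, 550 (485 and 65) with its beta prior, 692 (639 and 53) with edgeR's likelihood ratio test, 662 (554 and 108) with limma-voom and 654 (623 and 31) with the 8 chicks alone; each list held all of the 101 genes that it tested. With all 34 chicks in 1 fit it was 6 (4 and 2), of which 3 were among the 101. Libraries thinned to the lowest total gave 147 (143 and 4), of which 60 were among the 101. That fit tested 91 of the 101. With the muscle covariate, without chicks LID26 and LID36, or without chicks LID26, LID36 and LID104 (chosen after seeing the data) it was 0, with 1444, 1389 and 1201 genes at an unadjusted p below 0.05 in edgeR. Leaving out 1 chick gave 0 to 779 genes, 0 to 726 higher and 0 to 53 lower. RLE factors, no filter, 1 surrogate variable and muscle genes left out gave 110, 99, 85 and 130. Between positive and negative lens chicks the 4 calls became 51 and 34 with DESeq2 without and with the prior, 64 with the likelihood ratio test, 63 with all 34 chicks, 2 with the muscle covariate, 1 without chicks LID26 and LID36, 2 without chicks LID26, LID36 and LID104, and 1 to 84 without 1 chick. The difference between days gave 1 gene with DESeq2 for day 1 and 2 with limma-voom for day 2.

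Every gene of the 101 kept its sign under each alternative that tested it. Those genes were called in these same chicks, most without overlap between the groups, so this is a description. Of 1907 values of named genes under an alternative, 8 changed sign, all of muscle genes. The log2 fold changes of ACTA1, MYH13, MYBPC1 and MYL1 were -0.12, -1.52, -0.045 and -0.77 with the muscle covariate, and -0.48, -2.77, -0.23 and -1.61 without chicks LID26 and 36. The causes were not tested beyond what each alternative leaves out. No paired analysis was possible because the numbers only name chicks and pair none across groups.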
